A study of Homo sapiens with 16 samples.

Results

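The S100 calcium-binding genes examined here are S100A2, S100A3, S100A4, S100A6, S100A10, S100A11, S100A13 and S100A16, 8 of the 27043 gene rows of a table of single-cell RNA counts from SK-N-AS, a human cell line established from a neuroblastoma. Each was taken as the row that carries its name, and each had a row of its own. The cells were untreated, grown in serum-containing RPMI1640 medium, sorted singly into the wells of plates and sequenced with MARS-seq, a method that counts the 3′ ends of polyadenylated RNA. Of the 603 cells, none could be assigned to a labelled sample among the 16, because the columns carry only well barcodes, so all cells were treated as 1 sample. No test between samples was possible, and cells of 1 culture are not replicates. All intervals at 95% cover counting error only, and nothing here measures how another SK-N-AS culture would vary.

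S100 proteins are small calcium-binding proteins that mostly form homodimers. Calcium opens a surface on the dimer that binds a target protein such as an annexin, a myosin or an enzyme. S100A10 is the exception in the family, since it no longer binds calcium and is held permanently in the target-binding shape, in which it pairs with annexin A2 at the cell surface and binds tissue plasminogen activator. S100A4 binds non-muscle myosin and is known for its link to cell motility and metastasis, and S100A6, also called calcyclin, is often induced in proliferating and mesenchymal cells. S100B, a family member encoded on another chromosome, is the classical marker of Schwann cells, which form the stroma of some neuroblastic tumours.

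All 8 genes lie on chromosome 1, on the minus strand. In the RefSeq annotation S100A6, S100A5, S100A4, S100A3, S100A2, S100A16, S100A14 and S100A13 follow one another with no other protein-coding gene between them, and S100A10 and S100A11 are direct neighbours elsewhere on the chromosome. The 250 bases before the annotated start are shown for S100A4 and S100A6, whose variation between cells is followed below, and for S100A2 and S100A3, the members with the highest ratio between S100A4-high and S100A4-low cells. The sequences are from RefSeq, build GRCh38.p14, 5′ to 3′ on the strand of the gene. The windows are chr1:153545807-153546056 for S100A4, chr1:153535992-153536241 for S100A6, chr1:153565845-153566094 for the S100A2 start shown (S100A2 has another) and chr1:153549259-153549508 for S100A3. Capitals mark a TATA box (TATAAA) or an AP-1 motif (TGANTCA), searched on both strands.
S100A4: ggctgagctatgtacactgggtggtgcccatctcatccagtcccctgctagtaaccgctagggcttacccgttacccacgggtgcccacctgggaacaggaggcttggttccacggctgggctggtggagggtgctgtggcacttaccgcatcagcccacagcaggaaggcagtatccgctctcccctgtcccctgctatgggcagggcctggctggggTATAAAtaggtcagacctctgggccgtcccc
S100A6: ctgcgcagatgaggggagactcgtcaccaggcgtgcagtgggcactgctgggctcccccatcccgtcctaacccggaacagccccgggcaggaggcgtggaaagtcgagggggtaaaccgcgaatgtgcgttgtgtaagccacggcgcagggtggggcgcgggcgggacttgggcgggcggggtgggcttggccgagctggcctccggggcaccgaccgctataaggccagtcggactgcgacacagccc
S100A2: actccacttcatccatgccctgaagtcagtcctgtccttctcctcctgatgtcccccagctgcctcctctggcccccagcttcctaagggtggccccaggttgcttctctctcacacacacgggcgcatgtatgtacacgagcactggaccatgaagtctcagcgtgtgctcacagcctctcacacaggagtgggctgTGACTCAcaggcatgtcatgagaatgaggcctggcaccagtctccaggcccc
S100A3: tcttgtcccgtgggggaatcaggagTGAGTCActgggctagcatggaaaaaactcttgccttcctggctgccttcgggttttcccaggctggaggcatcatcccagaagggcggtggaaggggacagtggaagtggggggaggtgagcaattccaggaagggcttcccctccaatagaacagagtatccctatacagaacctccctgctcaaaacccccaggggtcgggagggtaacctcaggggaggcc
The S100A4 window holds TATAAA with its first base 31 bases before the start, a place typical of a TATA box. The S100A6 window holds neither motif in the letters searched. It has tataag at nearly the same place as TATAAA in the S100A4 window, which differs from TATAAA only in the last letter. The S100A2 window has the AP-1 motif as TGACTCA, 52 bases before the start, and the S100A3 window has TGAGTCA, 225 bases before the start. Of the 12 windows listed for the 8 genes, 2 had an AP-1 match, against 6.57% of all 35116 windows in the table. A TATA box match was found in 2 windows, in S100A4 and in 1 of the windows of S100A13, against 10.7% of all windows. A TEAD motif (CATTCC) was found in 1 window of S100A16, against 11.9% of all windows, and an E-box (CANNTG) in 8 of the 12, against 61.8%. The motifs were chosen after the sequences had been seen, no AP-1 or TATA box match overlapped another motif searched, and a match in these letters is not a binding site.

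The cells held 1000 to 42404 counts each, with a median of 2106. The 8 genes together took 1.68% of all counts, and S100A4 and S100A6 made up 59.1% of that. Markers of the sympathetic lineage were present only in part. Of 15 such markers 1, DBH, was at 0, and SCG2 was the highest at 797 CPM (counts per 1000000 of the summed counts). TBX2 and HAND2 were found in 53.1% and 44.3% of cells, but TH had 3 counts in all, HAND1 14 and ISL1 16. Of 13 mesenchymal markers 1, COL1A2, was at 0, and VIM was the highest at 5649 CPM, out of a summed 7408 CPM. AXL and CD44 were found in 50.1% and 36.3% of cells, but SNAI2 had 18 counts in all, PRRX1 70 and FN1 87. Of 8 Schwann lineage markers 6 were at 0, S100B and SOX10 among them, and the 8 summed to 5.85 CPM. Immune markers were at 0 in 9 of 12, with a summed level of 74.1 CPM, most of it CD68. Epithelial markers were at 0 in 6 of 10, but the keratin gene KRT18 had 334 CPM and was found in 44.1% of cells. Endothelial markers were at 0 in 4 of 7, with a summed level of 27.3 CPM.

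S100A6 and S100A4 were among the most abundant RNAs of SK-N-AS, and 5 of the 8 genes were found in more than 90% of cells. Because MARS-seq counts 3′ ends, CPM does not depend on transcript length and levels can be set side by side between genes, within the limits of how well each 3′ end is captured. S100A6 had 5303 CPM (5189 to 5420) and S100A4 4617 CPM (4510 to 4726), which placed them at ranks 5 and 7 among all genes outside the ribosomal protein genes. S100A11, whose protein binds annexin A1 and takes part in membrane repair, had 2588 CPM (2509 to 2670). S100A10, the annexin A2 partner, had 2012 CPM (1942 to 2084), and S100A16, an atypical and widely expressed member, 1878 CPM (1810 to 1948). The intervals of S100A10 and S100A16 overlapped, and no others among these 5 did.

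The other 3 genes were far lower. S100A2, best known from epithelial basal cells and a p53 binding partner, had 222 CPM (199 to 247) and was found in 27.7% of cells. S100A3, a cysteine-rich protein known from the hair cuticle, had 120 CPM (103 to 138) in 21.4% of cells, and S100A13, which takes part in the release of fibroblast growth factor, had 48.1 CPM (37.8 to 60.4) in 10.1% of cells. By contrast S100A6 had a count in 97.5% of cells (95.9 to 98.6%, exact binomial), S100A4 in 96.8%, S100A11 in 96.7%, S100A16 in 93.2% and S100A10 in 92.7%. The 10 cells with the most held 22.8% of S100A2 counts and 21.2% of S100A3 counts. S100A11 has 10 named pseudogenes in the RefSeq annotation, S100A4 overlaps S100A5, and S100A13 overlaps S100A1 and CHTOP, so reads of these genes may have been split in ways the table does not show.

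The table's columns fall into a run of 316 cells and a run of 287 cells in which well barcodes start again, called barcode set 1 and barcode set 2. The levels of S100A10, S100A11, S100A16 and S100A3 were alike in both, with log2 ratios of set 1 over set 2 between -0.02 and 0.09. S100A6 had 5889.7 CPM in set 1 and 4689 CPM in set 2, a log2 ratio of 0.33 (0.27 to 0.39). S100A4 differed less, with 4797 CPM in set 1 and 4428 CPM in set 2, and S100A2 had 251 CPM in set 1 and 193 CPM in set 2. Over 12 successive blocks of cells S100A6 ranged between 4358 and 6390.5 CPM and S100A11 between 2333 and 2879.7 CPM, with about 50 cells and so a wider counting error in each block. The part of the barcode sets in the S100A6 range was not tested. By depth of the cell, S100A4 had 4908, 4529 and 4535 CPM and S100A6 had 5439.7, 4931 and 5436 CPM in shallow, middle and deep cells (median totals of 1389, 2211 and 3723 counts).

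**Figure D1:**
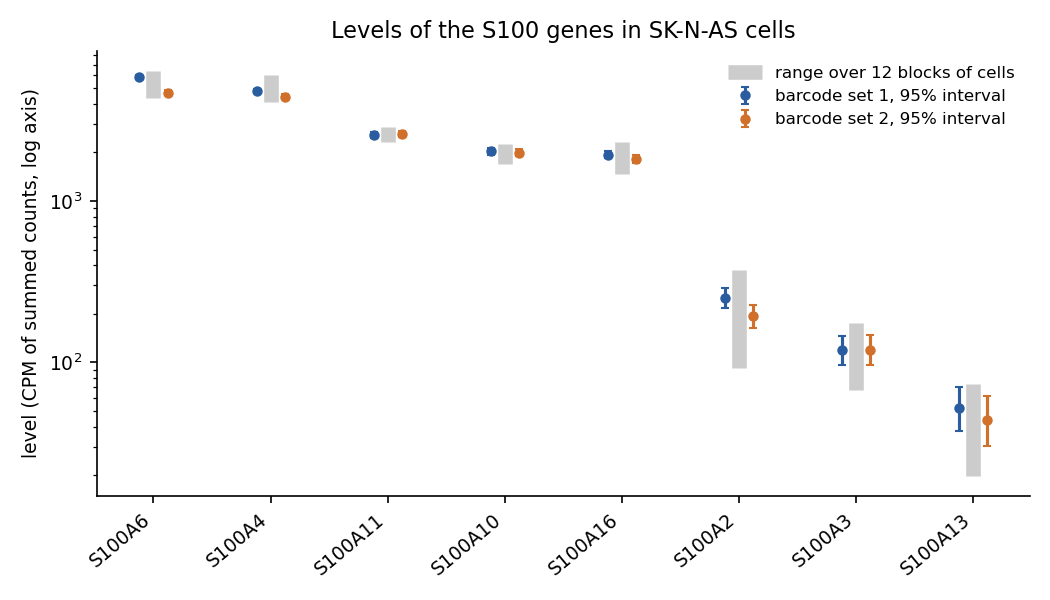
Level of each S100 gene in CPM of summed counts on a log axis, with barcode set 1 (blue) and barcode set 2 (orange) and their 95% counting intervals; grey bars give the range over 12 blocks of cells. S100A6 and S100A4 lead with 5303 and 4617 CPM over all cells, and S100A2, S100A3 and S100A13 lie at 222 CPM and below.

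The rest of the family had few or no counts. Of 13 other S100 genes with a row, 12 were listed at 0 in every cell, among them S100B, S100A1, S100A8, S100A9, S100A14 and S100P. With 3 counts taken as the limit that a count of 0 allows, this is up to 1.95 CPM, or a count in up to 0.498% of cells. PSMA6, a core proteasome subunit gene that all cells use, was also listed at 0, so a 0 in this table does not by itself mean that the RNA was absent. S100A5, which lies between S100A6 and S100A4 and overlaps S100A4, had 11 counts (7.15 CPM).

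S100A4 and S100A6 varied between cells far more than most genes of their abundance. To compare cells at equal depth, each cell was thinned to 1100 counts, which kept 560 cells and left out 43 shallower ones. At that depth S100A4 had a mean of 5.04 counts per cell, with the 95th percentile at 13 and a highest value of 23. S100A6 had a mean of 5.84 counts, with the 95th percentile at 14 and a highest value of 27. S100A4 was at 0 in 8.57% of cells and S100A6 in 7.14%, against 0.65% and 0.29% of a Poisson distribution of the same mean. The Fano factor, the variance over the mean, is near 1 when only counting varies. It was 3.10 for S100A4, where the median of 28 genes within 1.5-fold of its mean was 1.28 and 2 of them were higher, and 3.37 for S100A6, where the median of 25 such genes was 1.31 and 1 was higher.

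The other abundant members were far more even. S100A11 had a Fano factor of 1.35 and S100A16 of 1.35, and S100A10 had 1.41. After the part due to counting was removed, the coefficient of variation between cells was 64.5% for S100A4 and 63.7% for S100A6, and 43.9% for S100A10, 41.5% for S100A16 and 35.0% for S100A11. S100A2 was low and uneven, with a Fano factor of 1.87, which 7 of 698 genes of like mean exceeded, and a coefficient of variation of 184%. Of its thinned counts 72.9% lay in the tenth of cells with the most. S100A3 had a Fano factor of 1.30, exceeded by 43 of 1311 genes of like mean. S100A13, at a mean of 0.043 counts, had 1.04, with 1209 of 2262 genes higher, so no variation beyond counting was detectable at this depth. The Fano factors held in each barcode set, at 2.93 and 3.30 for S100A4 and 3.61 and 2.99 for S100A6.

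**Figure D2:**
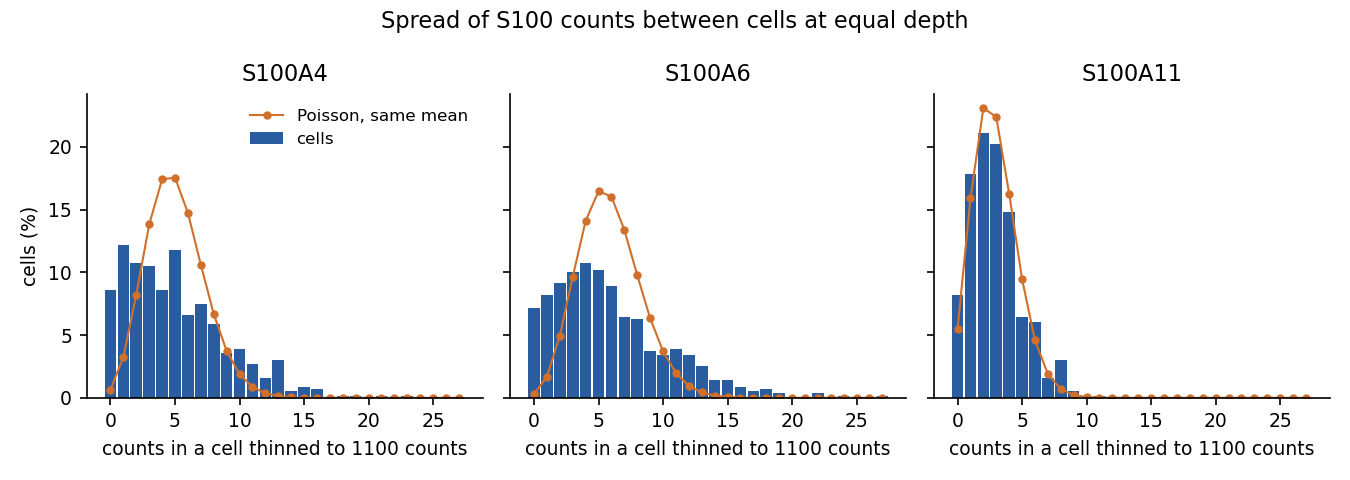
Share of the 560 cells (bars, % of cells) with each number of S100A4, S100A6 or S100A11 counts after thinning to 1100 counts, and the Poisson distribution of the same mean (orange). S100A4 and S100A6 have more cells at 0 (8.57% and 7.14%) and a longer upper tail than Poisson, while S100A11 stays close to it.

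Most pairs of members had weakly positive correlations across cells. Over the 560 cells, which share a line and preparation and are not independent replicates, the Spearman correlation (rho) was above 0 in 21 of 21 pairs that leave out S100A13, with a range of 0.04 to 0.35, and above 0 in both barcode sets in 19 of the 21. The highest was between S100A4 and S100A6 at 0.35, with 0.39 in barcode set 1 and 0.31 in set 2. Next came S100A4 with S100A11 at 0.24, with S100A2 at 0.22, with S100A16 at 0.21 and with S100A3 at 0.20, and S100A10 with S100A11 and with S100A6 at 0.21 each. Sparse counts pull these values towards 0. With the counting part removed, r was 0.47 for S100A4 and S100A6, 0.54 for S100A4 and S100A11, and 0.67 for S100A10 and S100A11. These values differed between barcode sets, with 0.60 in set 1 and 0.31 in set 2 for S100A4 and S100A6, and 0.32 in set 1 and 0.81 in set 2 for S100A4 and S100A11. In the 467 cells with no INS-IGF2 count, a gene taken up below, the 10 pairs of the 5 abundant members had rho between 0.04 and 0.27. In the 361 cells that also had no count of C7, DDC, PTN and D4S234E these pairs lay between -0.02 and 0.22, with S100A4 and S100A16 at 0.05 and S100A6 and S100A11 at -0.02. The 7 pairs with S100A13 lay between -0.07 and -0.01, and at its level a weak correlation is no finding.

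For scale, S100A4 was set against 340 genes with a thinned mean of at least 0.5 count. Their median rho was 0.01, and 95% of them lay between -0.13 and 0.20. S100A6 had a median of -0.01, with 95% between -0.13 and 0.21. The 10 pairs among the 5 abundant members had rho between 0.13 and 0.35. Several of the pairs with S100A4 or S100A6 were within the upper part of these ranges and not beyond it. The pairs of S100A10, S100A11 and S100A16 with one another involve neither gene, and no such range was made for them. The 340 genes were not matched in abundance to the 5 members, whose thinned means were 2.06 to 5.84. Sparser genes have rho pulled towards 0, so the ranges are a rough scale and may be too narrow for pairs of the 5 members. The genes most like S100A4 in pattern were S100A6, the galectin gene LGALS1 (0.26), SH3BGRL3 (0.25), S100A11, the ferritin light chain gene FTL (0.23), the tetraspanin gene CD63 of late endosomes (0.22), S100A16, the gelatinase gene MMP2 (0.20), the surface glycoprotein gene THY1 (0.20) and the respiratory chain gene NDUFA1 (0.20). The most opposed were INS-IGF2 (-0.29), the cytokine gene MIF (-0.27), the spliceosome gene SNRPD3 (-0.26), the procollagen processing gene PCOLCE (-0.19) and the G protein gene GNAS (-0.18).

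S100A6 went most with FTL, at 0.41, which was 0.48 in barcode set 1 and 0.30 in set 2. After S100A4 followed SH3BGRL3 (0.30), the chromatin protein gene HMGA1 (0.26), LGALS1 (0.25), CLIC1 (0.23), GNG11 (0.21), S100A10 (0.21), the ferritin heavy chain gene FTH1 (0.20) and the lamin gene LMNA (0.20). Its most opposed genes were INS-IGF2 (-0.29), MIF (-0.24), GNAS (-0.20), the nucleoside diphosphate kinase gene NME1 (-0.16) and SNRPD3 (-0.16). These correlations are descriptions of 1 set of cells, and most of them are weak.

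**Figure D3:**
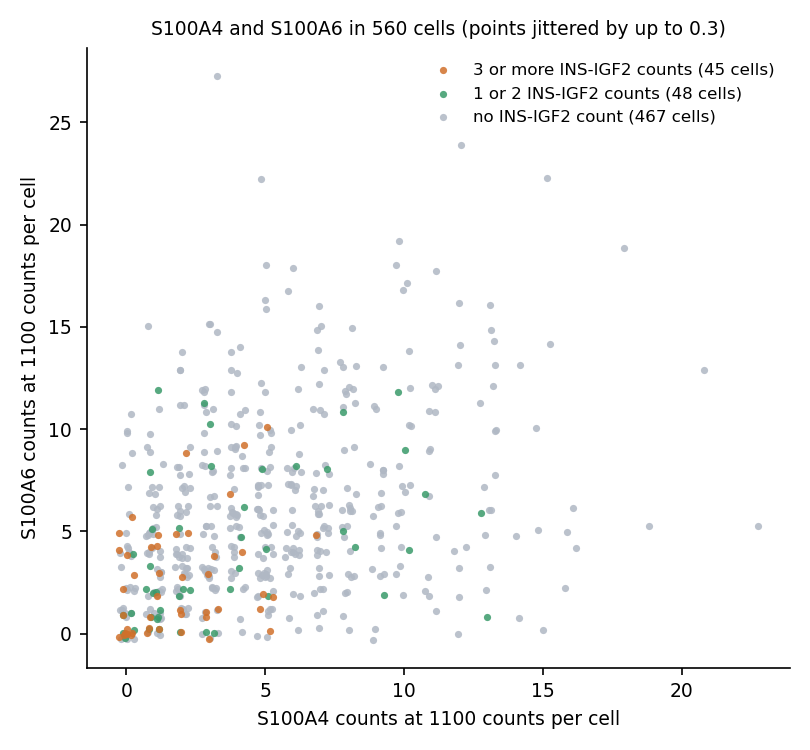
S100A4 (x axis) and S100A6 (y axis) counts in the 560 cells thinned to 1100 counts, with cells coloured by their INS-IGF2 count. The cloud slopes upward (rho 0.35), and the 45 cells with 3 or more INS-IGF2 counts gather at low values of both genes.

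To see which genes went with S100A4, the 186 cells with the most thinned S100A4 counts (6 or more, median 9) were set against the 186 with the fewest (3 or fewer, median 1), and the full counts of each group were summed. Median total counts were 2228.5 in S100A4-high cells and 2344.5 in S100A4-low cells, and 102 of the S100A4-high cells and 96 of the S100A4-low cells were in barcode set 1. Of 1406 genes with at least 200 counts, 72 were past 1.5-fold higher in S100A4-high cells (5.12%) and 65 were past 1.5-fold lower (4.62%). Of the 5 tested members other than S100A4 itself, 2 were past 1.5-fold higher, S100A2 and S100A6, and none was past it in the other direction. Ribosomal protein genes as a group took 17.1% of counts in S100A4-high cells and 16.7% in S100A4-low cells.

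S100A2 had the highest ratio of all 1406 genes. It had 390.4 CPM in S100A4-high cells, against 77.8 CPM in S100A4-low cells, a log2 ratio of 2.33 (1.83 to 2.86), with 2.41 and 2.35 within barcode sets 1 and 2. S100A6 had 6569 CPM in S100A4-high cells, against 3904 CPM in S100A4-low cells, a log2 ratio of 0.75 (0.67 to 0.83). S100A16, S100A11 and S100A10 followed at 0.49, 0.48 and 0.43, under the 1.5-fold line, with intervals above 0. S100A3, which has too few counts to be among the tested genes, had 80 counts in S100A4-high cells and 30 in S100A4-low cells, a log2 ratio of 1.49 (0.86 to 2.14). S100A13 had 22 counts in S100A4-high cells and 38 in S100A4-low cells, with an interval that spans 0 (-1.55 to 0.08).

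PLAT and TGM2 followed S100A2 at the upper end. PLAT, the tissue plasminogen activator gene, had 482 CPM in S100A4-high cells, against 158 CPM in S100A4-low cells, a log2 ratio of 1.61 (lower bound 1.24), at 1.81 in barcode set 1 and 0.76 in set 2. SERPINB2, a plasminogen activator inhibitor gene, had 419 CPM in S100A4-high cells, against 183 CPM in S100A4-low cells, a log2 ratio of 1.20 (0.84 to 1.56). TGM2, which encodes a protein-crosslinking transglutaminase, had 505 CPM in S100A4-high cells, against 179 CPM in S100A4-low cells. The secreted glycoprotein gene OLFML3 had a log2 ratio of 1.26 and the sialomucin gene PODXL of 1.24. Log2 ratios between 0.91 and 1.07 were found for the potassium channel gene KCNMA1, the adhesion gene AMIGO2, ZCCHC24, the joint row of HLA-C and HLA-B, and the calponin gene CNN2.

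The lower end was led by INS-IGF2, C7, D4S234E, DDC and PTN. INS-IGF2, a read-through of the insulin and insulin-like growth factor genes that shares its row with INS, had 73.6 CPM in S100A4-high cells, against 1712 CPM in S100A4-low cells, a log2 ratio of -4.54 (-5.06 to -4.06). The complement gene C7 was at -4.36, D4S234E, which encodes a neuronal endosomal protein, at -3.52, DDC, the decarboxylase of catecholamine synthesis, at -3.27, and the growth factor gene PTN at -2.79. MALAT1, a nuclear non-coding RNA, was at -2.06, the histone gene HIST1H2BK at -2.04 and the neuronal gene BEX1 at -1.99. Much of these RNAs came from few cells, since 10 cells held 48.8% of the INS-IGF2 counts, 43.8% of the MALAT1 counts and 36.2% of the DDC counts. INS-IGF2 had a count in 12 of the 186 S100A4-high cells and in 56 of the 186 S100A4-low cells. GCG, the glucagon gene, and CHGA, the chromogranin gene, were below the count minimum and were chosen after their values were seen. GCG had 2 counts in S100A4-high cells and 136 in S100A4-low cells, and CHGA had 2 in S100A4-high cells and 155 in S100A4-low cells.

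S100A6 was split in the same way, with 186 S100A6-high cells (7 or more counts, median 10) and 186 S100A6-low cells (3 or fewer, median 2). The median totals were 2347.5 in S100A6-high cells and 2202.5 in S100A6-low cells. Here 67 of 1406 genes (4.77%) were past 1.5-fold higher and 56 (3.98%) past 1.5-fold lower. The S100A4 and S100A6 splits are drawn from the same cells, so their results are not independent of each other. Of the 5 tested members other than S100A6, S100A2 and S100A4 were past 1.5-fold higher.

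PLAT had the highest ratio, with 590.2 CPM in S100A6-high cells, against 145 CPM in S100A6-low cells, a log2 ratio of 2.02 (1.65 to 2.41), at 1.92 and 2.02 in barcode sets 1 and 2. ITPR3, the gene of a calcium release channel of the endoplasmic reticulum, had 189 CPM in S100A6-high cells, against 50.5 CPM in S100A6-low cells, a log2 ratio of 1.90 (1.26 to 2.59). S100A2 had 301 CPM in S100A6-high cells, against 88.9 CPM in S100A6-low cells, a log2 ratio of 1.76 (1.27 to 2.27). The tyrosine breakdown gene FAH was at 1.40, the secreted protease gene HTRA1 at 1.24, and the tubulin gene TUBB2A at 1.19. FYTTD1, MFSD2B, the splicing gene PQBP1, SERPINB2, the autophagy receptor gene SQSTM1 and HMGA1 lay between 1.06 and 1.12. SQSTM1 had 1004.5 CPM in S100A6-high cells, against 471 CPM in S100A6-low cells.

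Among the other members, S100A4 was at 0.70 (5567 CPM in S100A6-high cells, against 3427 CPM in S100A6-low cells), S100A10 at 0.57, S100A16 at 0.46 and S100A11 at 0.28. S100A3 had 88 counts in S100A6-high cells and 41 in S100A6-low cells, and S100A13 had 32 in S100A6-high cells and 18 in S100A6-low cells, with an interval of its log2 ratio that spans 0 (-0.19 to 1.61). The lower end was led by INS-IGF2 at -3.87 (-4.24 to -3.52), C7 at -3.31, PTN at -2.90, DDC at -2.67 and D4S234E at -2.01. BEX1 was at -1.59, the brain creatine kinase gene CKB at -1.55 and the transcription factor gene GATA2 at -1.30. MALAT1, which was at -2.06 in the S100A4 split, was at -0.18 here. INS-IGF2 had a count in 15 of the S100A6-high cells and in 54 of the S100A6-low cells.

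The leading genes could be read in cells that had no part in choosing them. The 20 genes with the highest S100A4 ratio in barcode set 1 had a median log2 ratio of 0.74 in set 2, with 16 above 0, and the 20 with the lowest had a median of -1.20, with 19 below 0. Over all 1406 genes 48.5% were above 0 in set 2. For S100A6 the 20 highest in set 1 had a median of 0.74 in set 2, with 19 above 0, and the 20 lowest a median of -0.92, with 16 below 0. Read in set 1, the genes leading in set 2 had medians of 0.61 and -1.20 for S100A4 and of 0.82 and -0.97 for S100A6.

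**Figure D4:**
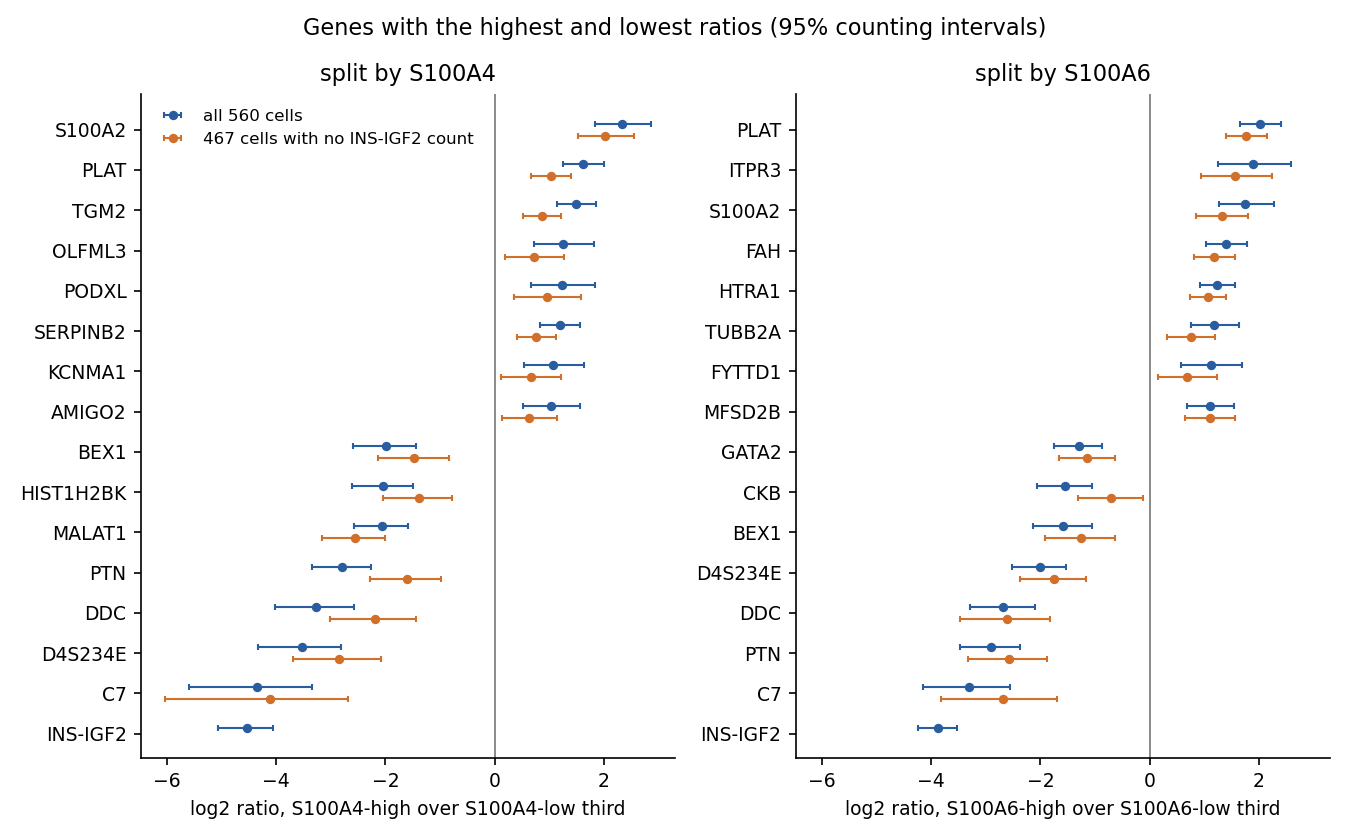
Log2 ratios of the 8 highest and 8 lowest genes between S100A4-high and S100A4-low cells (left) and between S100A6-high and S100A6-low cells (right), in all 560 cells (blue) and in the 467 cells with no INS-IGF2 count (orange), with 95% counting intervals. S100A2 leads the S100A4 split at 2.33 and PLAT the S100A6 split at 2.02, and D4S234E and C7 stay far below 0 without the INS-IGF2 cells.

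Since INS-IGF2 cells were fewer in S100A4-high and S100A6-high cells, both splits were repeated without them, an alternative chosen after the data were seen. In the 467 cells with no INS-IGF2 count at equal depth, 40 genes (2.84%) were past 1.5-fold higher with S100A4 and 58 (4.13%) past 1.5-fold lower. S100A2 was then at 2.02, PLAT at 1.03, DDC at -2.20, PTN at -1.61 and D4S234E at -2.85. With S100A6, 43 genes (3.06%) were higher and 60 (4.27%) lower, PLAT was at 1.76 and SQSTM1 at 1.16, against 1.09 in all cells. In the 361 cells that also had no count of C7, DDC, PTN and D4S234E, 32 genes (2.28%) were higher and 54 (3.84%) lower with S100A4, and 53 (3.77%) higher and 72 (5.12%) lower with S100A6. S100A2 was then at 1.27 with S100A4, and PLAT at 1.61 and HTRA1 at 1.01 with S100A6, while PODXL was at -0.03 with S100A4. The rho of S100A4 and S100A6 was 0.27 in the 467 cells and 0.22 in the 361 cells.

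Gene lists of known cell programs were read in both splits. Over all 1406 tested genes, 5.12% were past 1.5-fold higher and 4.62% lower with S100A4, and 4.77% higher and 3.98% lower with S100A6. Of 12 tested genes of lysosomes and iron storage, 4 were past 1.5-fold higher with S100A4 and 4 with S100A6, and none was past it lower in either. Their median log2 ratio was 0.46 with S100A4 and 0.32 with S100A6, where the median of all tested genes was -0.01 and -0.02. FTL, the most abundant of them, had 7580.2 CPM in S100A4-high cells, against 4387 CPM in S100A4-low cells, and 7900.4 CPM in S100A6-high cells, against 3865 CPM in S100A6-low cells. Of 6 tested genes of antigen presentation by MHC class I, all 6 were above 0 with S100A4 and 5 with S100A6, with 1 past 1.5-fold in each, and medians of 0.32 and 0.37. The summed MHC class I ratio with S100A4 was 0.40, with 0.62 in barcode set 1 and 0.14 in set 2, and it was 0.20 in the 467 cells and 0.06 in the 361 cells, while with S100A6 it was 0.41, 0.28 and 0.34 in all, the 467 and the 361 cells. The summed lysosome and iron storage ratio was 0.59, 0.42 and 0.24 with S100A4 and 0.73, 0.70 and 0.56 with S100A6 in all, the 467 and the 361 cells. In barcode sets 1 and 2 it was 0.47 and 0.66 with S100A4, and 0.93 and 0.54 with S100A6. FTL made up 51.5% of the counts of this list, so the summed ratio is weighted towards FTL. Of 11 extracellular matrix genes 8 were above 0 with S100A4, with 1 past 1.5-fold higher and 1 past it lower, and 5 were above 0 with S100A6, with none past it.

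Genes of the adrenergic state, the sympathetic program of neuroblastoma, did not move as 1 group. Of 23 listed rows 5 had enough counts, and 3 of them were past 1.5-fold lower with S100A4, namely DDC, GATA2 at -1.24 and GATA3 (114 CPM in S100A4-high cells, against 229.5 CPM in S100A4-low cells), while TBX2 was at 0.38 and HAND2 at 0.10. With S100A6, 2 were past 1.5-fold lower, DDC and GATA2, and TBX2 was past it higher at 0.63. The summed list was at -0.91 with S100A4 and -0.79 with S100A6 in all cells. In the cells with no INS-IGF2 count it was at -0.31 (-0.48 to -0.13) and -0.32 (-0.49 to -0.16). It was at 0.06 and -0.01 in the 361 cells without the 5 genes, DDC being one of those. In barcode sets 1 and 2 it was at -0.52 and -1.48 with S100A4, and at -0.69 and -0.98 with S100A6. Of 7 tested mesenchymal state genes, 2 were past 1.5-fold higher with S100A4, CD44 at 0.80 and AXL at 0.74, and 1 with S100A6, FOSL1 at 0.65. With S100A4, 4 of the 7 were above 0 and 3 below, with a median of 0.07. With S100A6, 6 were above 0 and 1 below, with a median of 0.29. VIM, the most abundant mesenchymal gene, was at -0.17 with S100A4 and 0.29 with S100A6. In all cells the summed mesenchymal list was at -0.06 with S100A4 and 0.21 with S100A6. In the cells with no INS-IGF2 count it was at -0.22 (-0.29 to -0.16) and 0.05 (-0.02 to 0.11). In the 361 cells it was at -0.13 and -0.14. VIM made up 63.7% of the counts of this list, so the summed ratio is weighted towards VIM. Of 15 tested G2/M genes 4 were past 1.5-fold lower with S100A4 and 1 with S100A6, none was past it higher, and the medians were -0.35 and -0.32. Of 9 G1/S genes 2 were past 1.5-fold lower with S100A4 and 1 with S100A6. Of 7 tested binding partners of S100 proteins 1 was past 1.5-fold higher in each split, which was PLAT, and 1 was past it lower with S100A4, the S100A6-binding gene CACYBP at -0.72. Of 12 other calcium-binding genes 1 was past 1.5-fold higher in each split and 1 lower with S100A4. In lists this short, 1 gene past the line is near the share over all tested genes and is no result about the list. Of 4 MAPK target genes 1 was past 1.5-fold lower in each split and 1 higher with S100A6, and of 5 stress response genes 1 was past it higher with S100A4. Actin cytoskeleton, respiratory chain, glycolysis and proteasome genes had medians between -0.12 and 0.18 in both splits.

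The 5 abundant S100 genes and S100A2 were lower in the cells with the most INS-IGF2. Along cells with no INS-IGF2 count (467), 1 or 2 counts (48) and 3 or more (45), S100A4 had 5046, 2928 and 1700.3 CPM, and S100A6 had 5777, 3678 and 2022 CPM. S100A16 had 2017, 1605 and 682 CPM, S100A10 had 2136, 1967 and 885 CPM, and S100A11 had 2705, 2267 and 1536 CPM. The intervals of the first and last level did not overlap for any of these 5 genes. S100A2 had 256, 106 and 23.5 CPM, the last from 3 counts. Between cells with 3 or more and cells with none, the log2 ratio was -3.44 (-5.73 to -1.88) for S100A2, -1.57 for S100A4, -1.57 for S100A16, -1.51 for S100A6, -1.27 for S100A10 and -0.82 for S100A11. The 6 members with enough counts to be tested were all past 1.5-fold lower, where 18.0% of 1407 tested genes were past it lower and 6.68% higher. S100A3, below the count minimum, was at -1.05 (-2.28 to -0.03) from 8 counts in the INS-IGF2 cells. S100A13 gave no direction. Its log2 ratio was -0.68 (-2.60 to 0.74) from 4 counts in the INS-IGF2 cells, but at equal depth it had a count in 6.67% of the cells with 3 or more INS-IGF2 counts and 3.64% of the cells with none. INS-IGF2 was singled out because it led the lower end of both splits, so the values for S100A4 and S100A6 restate that result, and the median total was 2353 counts in the cells with 3 or more and 2231 in the cells with none.

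**Figure D5:**
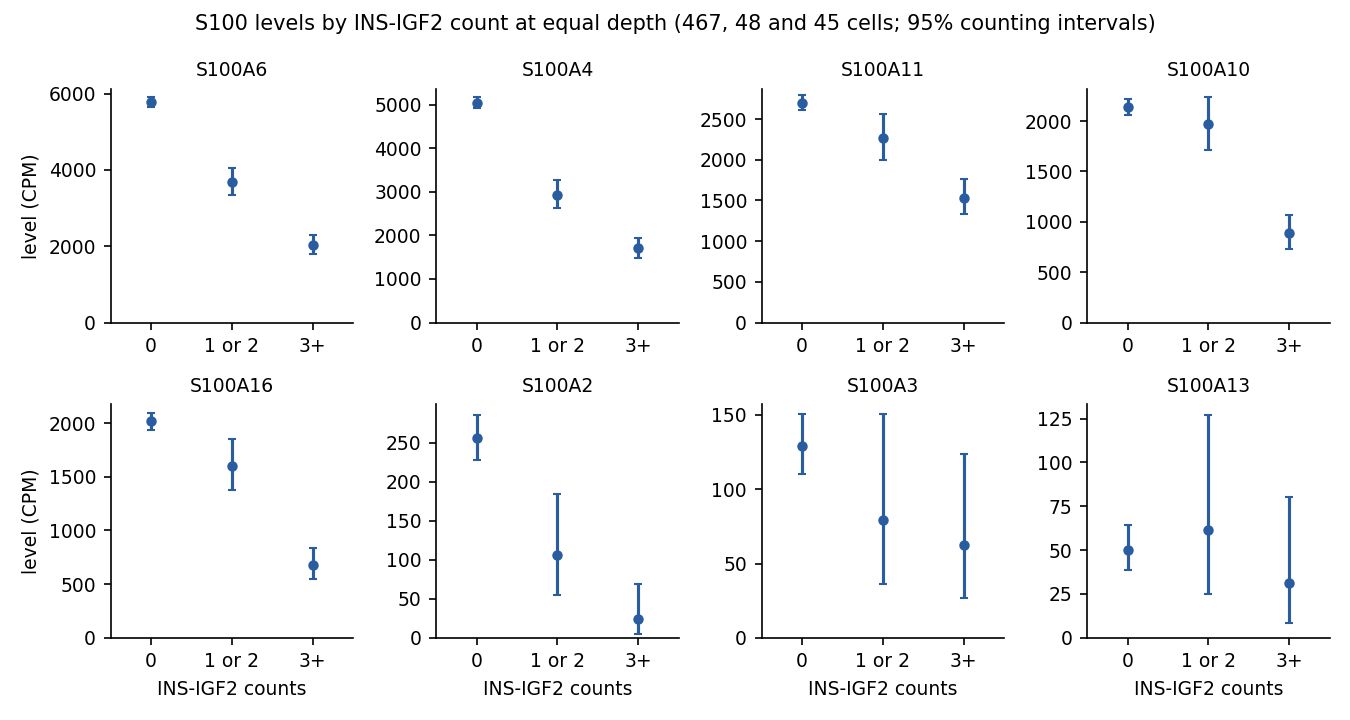
Level of each S100 gene (CPM of full counts, linear axis from 0, 95% counting intervals) in the 467 cells with no INS-IGF2 count, the 48 with 1 or 2 and the 45 with 3 or more. Cells were grouped by their INS-IGF2 count at equal depth. S100A4 is at 5046, 2928 and 1700.3 CPM along this order. Between the first and last group only the intervals of S100A3 and S100A13 overlap. Those of S100A10 also overlap between no count and 1 or 2, and those of S100A2 between 1 or 2 and 3 or more.

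The 8 genes were also read in cells high or low in each program, again as 186 against 186 cells, with the S100 genes left out of the score, which is the sum of a list's thinned counts. These splits rest on few counts per cell and moved with the random draw of the thinning, which the counting intervals do not cover. With another draw, the ratios of the 5 abundant members moved by a median of 0.06 and by up to 0.32 on the log2 scale. Over 15 lists and 8 genes 18 ratios were past 1.5-fold, and 10 of the 18 were past it the same way with another draw and 9 in the cells with no INS-IGF2 count. The shares of tested genes given below are over genes with at least 200 counts. S100A3 and S100A13 lie below that minimum, and sparse genes pass the line more easily by counting error. The shares are therefore no fair scale for S100A3 and S100A13.

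S100A6, S100A4, S100A2 and S100A3 were higher in cells high in lysosome and iron storage genes, with both random draws. Cells high in these genes had 7250.0 CPM of S100A6, against 3827 CPM in cells low in them, a log2 ratio of 0.92 (0.84 to 1.00), at 0.96 with another draw and 0.81 without INS-IGF2 cells. S100A4 was at 0.72, S100A2 at 1.56 and S100A3, below the count minimum, at 0.76. Thus 4 of the 8 genes were past 1.5-fold higher, against 3.73% of tested genes, while S100A10 was at 0.17 and S100A16 at 0.18. Without INS-IGF2 cells S100A4 was at 0.54, under the 1.5-fold line. FTL made up 51.5% of the counts of this list, and FTL is also the gene with the highest correlation with S100A6, so the split is not independent of that result.

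By extracellular matrix genes, which encode secreted and fibre-forming proteins, S100A4 and S100A2 were past 1.5-fold higher, as were 3.72% of tested genes. S100A4 had 5454 CPM in cells high in matrix genes, against 3179 CPM in cells low in them, a log2 ratio of 0.78 (0.69 to 0.87), where S100A6 was at 0.25 (0.17 to 0.33). With another draw S100A4 was at 0.67 and S100A2 at 0.57, and without INS-IGF2 cells S100A4 was at 0.49. By MHC class I genes S100A4 was at 0.68 (0.59 to 0.77) and S100A3 at 0.70, both past 1.5-fold higher as were 2.86% of tested genes, with S100A6 at 0.33. S100A4 was under the line with another draw, at 0.55, and without INS-IGF2 cells, at 0.52. S100A13 was past 1.5-fold lower there, as were 2.64% of tested genes, with an interval that spans 0 (-1.68 to 0.16). In the lysosome, matrix and MHC class I splits fewer of the high cells than of the low cells had an INS-IGF2 count, with 14 against 48, 20 against 56 and 20 against 44.

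S100A10 did not pass the 1.5-fold line by any of the 15 lists. It came nearest by the actin cytoskeleton, whose genes encode actins, thymosins and calponins. It had 2359.6 CPM in cells high in them, against 1578 CPM in cells low in them, a log2 ratio of 0.58 (0.45 to 0.71). An INS-IGF2 count was present in 19 of the actin-high cells and 48 of the actin-low cells, and without such cells S100A10 was at 0.40. S100A13, below the count minimum, was past the line higher at 0.82, with an interval that reaches 0. It had 37 counts in actin-high cells and 20 in actin-low cells. Of tested genes 3.90% were past the line higher.

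In cells high in adrenergic genes S100A4 was at -0.38, S100A16 at -0.42, S100A10 at -0.33, S100A6 at -0.27 and S100A11 at -0.24. S100A2 at -0.83 and S100A3 at -1.09 were past 1.5-fold lower (3.07% of tested genes), and S100A13 was past it higher at 1.16 (2.57% of tested genes). With another draw S100A2 was at -0.36, S100A3 at -0.48 and S100A13 at 0.47, none of them past the line. An INS-IGF2 count was present in 53 of the adrenergic-high cells and 12 of the adrenergic-low cells. Without such cells S100A4 was at -0.14, S100A6 at -0.06, S100A2 at -0.15 and S100A3 at -0.37.

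By G1/S genes S100A2 was past 1.5-fold lower at -0.77 (-1.20 to -0.34), as were 2.72% of tested genes, at -1.13 with another draw, with S100A6 at -0.39 and S100A4 at -0.16. S100A2 was also past the line by proteasome genes, at -0.88 (1.44% of tested genes lower), where another draw gave 0.03. It was past it higher by MAPK target genes, at 0.61 (0.356% of tested genes), and by stress response genes, at 0.64 (2.14% of tested genes). Another draw gave 0.44 for the MAPK targets and 1.04 for the stress response. By respiratory chain genes S100A3 was past 1.5-fold lower at -0.70 (4.23% of tested genes), and at -0.71 with another draw. Cells high in G2/M genes had S100A4 and S100A6 both at -0.30 and S100A11 at -0.29, under the line, and S100A16 at 0.01. S100A2 was at -0.56 there, also under the line, with -0.88 in barcode set 1 and -0.12 in set 2. It was past the line at -0.68 with another draw and at -0.82 without INS-IGF2 cells. By mesenchymal state genes, where VIM made up 63.7% of the counts, no member was past the line. An INS-IGF2 count was present in 20 of the mesenchymal-high cells and 43 of the mesenchymal-low cells. S100A4 was at 0.10 and S100A6 at 0.18 there, and at -0.12 and -0.05 without INS-IGF2 cells.

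Correlations of the S100 genes with the RNAs of known binding partners were at most weak. ANXA2, the partner of S100A10, had 2472 CPM, close to the 2012 CPM of S100A10 itself, and a rho of 0.09 with it, 0.09 in barcode set 1 and 0.07 in set 2. MYH9, the non-muscle myosin heavy chain bound by S100A4, had 185 CPM and a rho of 0.03 with S100A4. CACYBP, named for its binding of S100A6, had 171 CPM and a rho of -0.04. ANXA1 was low at 50.1 CPM with a rho of -0.01 with S100A11, and FGF1, whose release involves S100A13, had 3 counts in all. PLAT, bound by the complex of S100A10, had a rho of 0.08 with S100A10, against 0.20 with S100A4 and 0.22 with S100A6. In barcode sets 1 and 2 it was 0.16 and -0.02 with S100A10, 0.25 and 0.13 with S100A4, and 0.25 and 0.15 with S100A6. S100A10 has fewer counts than the other 2, which lowers its rho more. After removal of the counting part, r with PLAT was 0.16 for S100A10, 0.24 for S100A4 and 0.33 for S100A6. With the counting part removed, r with ANXA2 was 0.21 for S100A10 and 0.30 for S100A11, whose rho with it was 0.11. MYH9, CACYBP and ANXA1 had a mean of 0.214 thinned counts per cell or fewer, where a weak correlation is no finding.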

How the data were processed

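The authors deposited raw counts (whole numbers) by gene and cell in 1 table for all cells. Per the submitters' processing notes, Bowtie2 2.1.0 was the aligner and hg19 the build. Not given in the sources used here are the counting tool, the annotation, the cell filter and whether a count is a molecule or a read. A row named unknown (2 counts, 0.00013% of all) was left out, 0 columns of per-sample values went unused, and no doublet caller was run because single cells were sorted. The 603 cells hold 1537576 counts.

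Levels are CPM of summed counts with exact Poisson intervals, shares have exact Clopper-Pearson intervals, and ratios have exact conditional binomial intervals, all at 95%. A count of 0 was given a floor of 3 counts. Cells were thinned without replacement to 1100 counts (43 cells, 7.13%, left out). Groups of 186 cells were cut by thinned counts with ties drawn at random, full counts were summed, and genes with at least 200 counts were compared. Such groups are ranges of a count and not cell types. Because all cells form 1 sample, a gene past 1.5-fold counts as called, and no p-value was made.

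Named genes were, for S100A4 and for S100A6, the 12 highest and 8 lowest ratios and, among genes with a thinned mean of at least 0.5, the 10 highest and 5 lowest rho, outside ribosomal protein genes, plus members of the 23 gene lists with the highest CPM. 1 gene that this rule names is not reported here. These are extremes of many values, and their intervals do not allow for that choice. The members and lists were chosen with earlier results of these data known. The scripts were tested on simulated data. Python 3.11.15, numpy 2.4.6, scipy 1.17.1 and pandas 2.3.3 were used.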

Additional observations from a re-analysis of the deposited data

How the results depend on the processing

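The S100A4 and S100A6 levels, at 4617 and 5303 CPM, were 5549 and 6373 CPM with ribosomal protein genes left out of the total, 4797 and 5889.7 CPM in barcode set 1 and 4428 and 4689 CPM in set 2, and stayed within their intervals in the other alternatives. The coefficient of variation of S100A4 beyond counting was 58.5% in cells with no INS-IGF2 count, and moved less than its error in the other alternatives. The rho of S100A4 and S100A6 was 0.27 at 700 counts per cell, 0.27 in cells with no INS-IGF2 count and 0.22 in cells with no count of the 5 genes.

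The number of genes past 1.5-fold moved most with the count minimum. With S100A4 it was 415 higher and 536 lower with genes of at least 50 counts, 25 and 14 with at least 500, 25 and 34 with groups of 280 cells, and 124 and 99 in barcode set 2. It was 105 lower with groups of 140 cells and 110 lower with mean thinned counts, and 40 higher without INS-IGF2 cells and 32 higher without cells of the 5 genes. With S100A6 it was 425 higher and 475 lower at 50 counts, 18 and 12 at 500, 42 and 36 with groups of 280 cells, 105 and 87 with groups of 140, 107 and 118 with mean thinned counts, 105 and 123 in set 1, and 114 and 92 in set 2, and 43 higher without INS-IGF2 cells. Without the deepest cell, which holds 2.76% of all counts, the number was 60 higher and 60 lower with S100A6, and 72 and 65 with S100A4. The counts at minima of 50 and 500 come from different numbers of tested genes, since a lower minimum admits more genes. Sparse genes also pass the line more easily by counting error. The move with the minimum is therefore not a change in the share of genes past the line, which was not compared between minima. The direction of the 20 named genes of each split was kept in 217 of 220 values for S100A4 and 219 of 220 for S100A6. These genes were picked as the extremes of the main ratio, and the alternatives reuse the same cells. Kept directions are therefore largely built in and are no independent support. The exceptions were in cells with no count of the 5 genes, where PODXL was at -0.027, PTN at 0.057 and INS-IGF2 at 0.10 with S100A4 and PTN at 0.081 with S100A6. PTN and INS-IGF2 are genes whose absence chose those cells.

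The lists with S100A4 past 1.5-fold numbered 3, and 0 with groups of 280 cells or without INS-IGF2 cells. No paired analysis was possible because the cells form 1 group with no sample names. S100A13, S100A3 and the other genes under 200 counts are limited by depth, and intervals leave out differences between plates and cultures.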
